A study of Homo sapiens with 12 samples.

Results

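ATP-binding cassette (ABC) transporter genes were followed in FaDu and Cal27 head and neck squamous cell carcinoma cells and in populations of each line selected for resistance to afatinib (AfaR) or erlotinib (ErlR). The members were the protein-coding genes whose symbol consists of ABC, a subfamily letter from A to G and a number, which gave 45 genes of 58051 in the count files. Of these, 8 are known drug-efflux pumps (ABCB1, ABCC1 to ABCC6 and ABCG2) and were set apart.

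ABC proteins bind and hydrolyse ATP at a pair of nucleotide-binding domains. Most of them couple this to the movement of lipids, peptides, metals, bile acids or drugs across a membrane. ABCB1 (P-glycoprotein), ABCC1 (MRP1) and ABCG2 (BCRP) are the members best known for lowering the intracellular level of anticancer drugs, and ABCB1 and ABCG2 both interact with many tyrosine kinase inhibitors. The E and F subfamilies have nucleotide-binding domains but no membrane domain and work at the ribosome.

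FaDu is a hypopharyngeal and Cal27 a tongue squamous carcinoma line, both labelled wild type. Erlotinib inhibits EGFR reversibly, and afatinib inhibits EGFR and other ERBB kinases irreversibly. Each line was represented by parental, AfaR and ErlR cells, with 2 poly(A) RNA libraries per group and 12 libraries in 6 groups, all carrying ERCC spike-in RNA and all labelled as 1 batch. FaDu cells were grown in EMEM and Cal27 cells in DMEM. Each resistant model was 1 population raised by stepwise escalation of 1 drug, kept under that drug and, per the study's methods, taken off it for a day before experiments. The 2 libraries of a group were therefore repeats of 1 selected population, and the p-values measure the spread between such repeats and not between independent selections. Libraries held 16334937 to 23399259 counts assigned to genes, and the members took 0.116% to 0.154% of them, with the highest shares in the 2 Cal27 AfaR libraries. All 7 squamous epithelial markers checked (keratins, TP63, SFN, EPCAM and CDH1) had a mean above 1 CPM in every group. That bar is low, since 3 or 4 of 6 immune markers also passed it in each group. By summed level, the squamous markers were above each of the other marker sets in every group. The margin was smallest in Cal27 AfaR, where all 7 were lower than in Cal27 parental. There KRT14 was at 0.918 and 1.63 CPM, against a Cal27 parental mean of 192 CPM. The summed levels are given with the results below.

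Levels are library-size scaled counts (CPM) on 1 TMM scale over the 12 libraries, and only levels compared between genes are given per kilobase of exon (RPKM). A member was called where edgeR's quasi-likelihood test, fitted over all genes of a line, gave a Benjamini-Hochberg adjusted p under 0.05 and a log2 fold change beyond 1 in either direction. In bulk RNA, fewer cells that express a gene and less of its RNA per cell cannot be told apart.

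Levels within the family ran from abundant messages to no read at all. The ribosome-associated genes were highest per length, with median RPKM over the 12 libraries of 46.4 for ABCF1 (a translation initiation factor partner), 37.9 for ABCE1 (which splits ribosomes after termination) and 37.5 for ABCF2. ABCC1 followed at 19.7 RPKM, then ABCF3 at 12.5 and ABCD3, the peroxisomal membrane protein PMP70, at 11.4. The other efflux pumps were lower, with median RPKM of 2.70 for ABCC3, 2.56 for ABCC4, 1.27 for ABCC5, 0.574 for ABCG2, 0.185 for ABCC2, 0.0845 for ABCC6 and 0.0642 for ABCB1. By CPM, 23 of the 45 members were above 1 in every library, 11 were above 10 in every library, and 14 never exceeded 1. ABCG8, a sterol half-transporter of liver and gut, had no count in any library. In each line 31 members passed the filter on low counts, 30 of them in both lines, and 13 passed in neither. Among the tested members, ABCA10, ABCA13 and ABCC9 in FaDu, and ABCA10, ABCB5, ABCC6 and ABCC9 in Cal27, reached the filter level in at most 1 group.

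**Figure D1:**
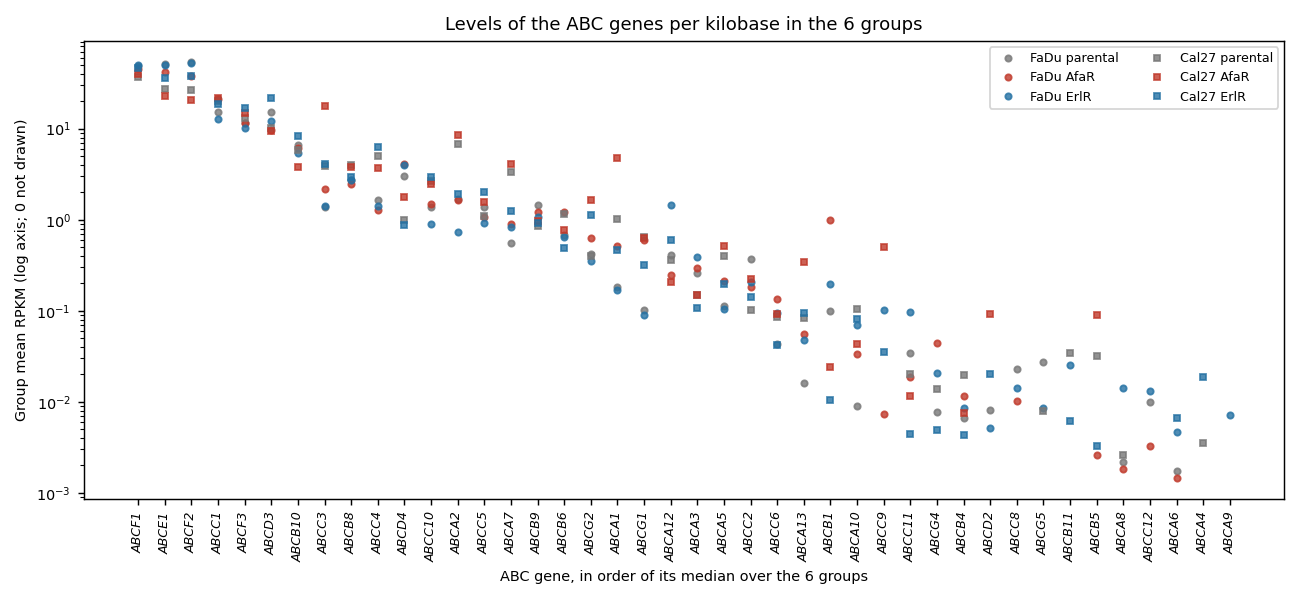
Mean level per kilobase (RPKM, log axis) of 42 ABC genes with any count, in order of their median over the 6 groups, with circles for FaDu and squares for Cal27. ABCF1, ABCE1, ABCF2 and ABCC1 lie among the highest in all groups. ABCC3 and ABCA1 have 1 group well above the rest, while the groups of ABCB1 and ABCC9 are spread widely.

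Against the parental cells of its line, each resistant population had a small set of called members, and the efflux pumps among them were ABCB1 in FaDu AfaR, ABCC3 and ABCG2 in Cal27 AfaR and ABCG2 in Cal27 ErlR. In FaDu AfaR, 4 of 31 members were called, all higher, among them ABCB1, ABCG1 and ABCA1, where 7.43% of all 15092 genes were called, with 6.48% called higher and 0.954% lower. In FaDu ErlR, 3 of 31 were called, ABCC9 and ABCA12 higher and ABCA2 lower, against 2.05% of all genes, 1.54% higher and 0.504% lower. In Cal27 AfaR, 5 of 31 were called, all higher, namely ABCC9, ABCA1, ABCC3, ABCA13 and ABCG2, against 19.6% of all 15269 genes (11.5% called higher and 8.06% lower). In Cal27 ErlR, 8 of 31 were called against 13.5% of all genes (3.56% higher and 9.92% lower), with ABCC9, ABCG2 and ABCD3 higher and ABCA2, ABCA7, ABCB6 and ABCA5 among the lower ones. The members' shares were 12.9%, 9.68%, 16.1% and 25.8% in that order, which in Cal27 AfaR was below the share of all genes. ABCC9 passed the filter on low counts only through a group where it was high, so its calls are counted but support nothing. Without it 2 of 30 (6.67%) were called in FaDu ErlR, 4 of 30 (13.3%) in Cal27 AfaR and 7 of 30 (23.3%) in Cal27 ErlR. By an adjusted p under 0.05 with no fold limit, 8 members passed for AfaR (17.9% of all genes did) and 3 for ErlR (4.18%) in FaDu, and 8 (37.6%) and 11 (27.6%) in Cal27.

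Over the 4 comparisons, 14 members were called at least once, ABCC9 among them. The matching count over all genes was not made, so this number is not read as a result about the family. The median log2 fold change of the tested members was 0.17 for AfaR and -0.07 for ErlR in FaDu, and 0.12 and 0.06 in Cal27, beside a median of -0.03 for all genes tested in Cal27 ErlR and medians nearer to 0 in the other 3. With ABCC9 at its lower bound, or left out where no bound could be set, these medians were 0.13, -0.07, 0.12 and 0.06. The AfaR and ErlR populations of a line were compared with the same 2 parental libraries, so their values are set side by side and no overlap between them is read. The count of called members changed in all 4 comparisons when single libraries were left out. In FaDu AfaR it was 2 without parental replicate 1 or without AfaR replicate 2. In FaDu ErlR it was 1 without parental replicate 1 or ErlR replicate 1, and 0 without parental replicate 2 or ErlR replicate 2, where edgeR's unadjusted p was under 0.05 for 11 members with all libraries and DESeq2 called 2. In Cal27 ErlR it was 4 without parental replicate 2 or ErlR replicate 1, and in Cal27 AfaR it ranged from 4 to 6. Scaling to the spike-ins gave 6 called members in FaDu ErlR, all higher, in place of 2 higher and 1 lower. Of all 15092 genes, 1576 were then called in place of 309, and 96.1% of the calls were higher. The 6 include ABCC9, ABCA10 and ABCA13, which reached the filter level in at most 1 FaDu group, so these are no support.

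**Figure D2:**
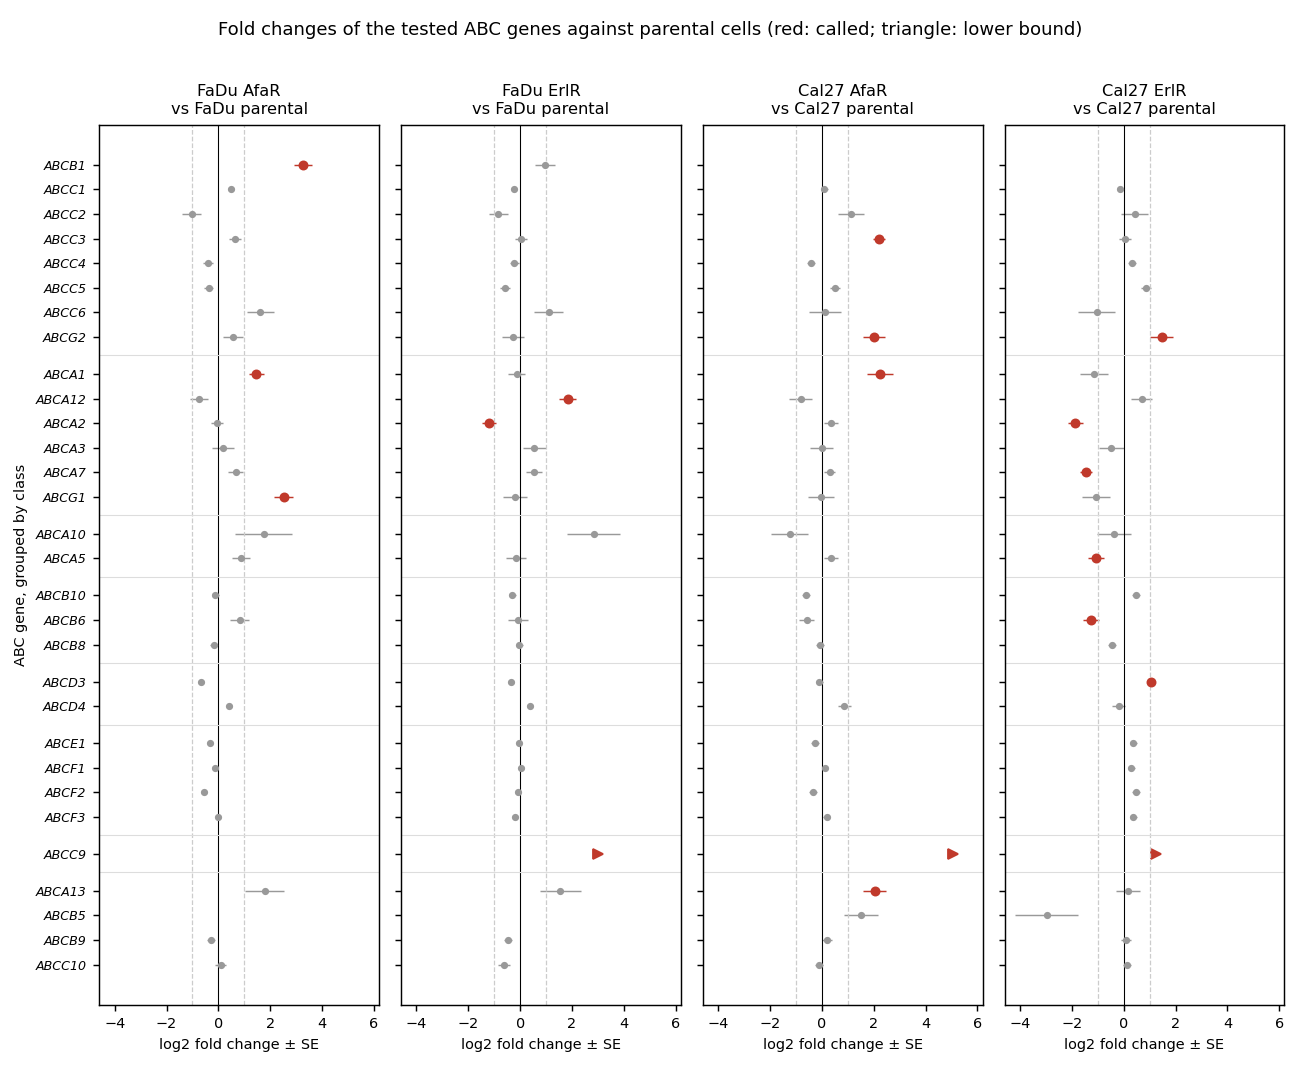
Log2 fold change of 30 tested ABC genes against the parental cells of its line, with its standard error, by class from drug efflux at the top to other members at the bottom. Red points passed an adjusted p under 0.05 and a log2 fold change beyond 1, triangles are lower bounds for ABCC9, whose parental libraries had no count, dashed lines mark a log2 fold change of 1 in each direction, and genes not tested in a line have no point there.

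The 8 drug-efflux genes were all tested in FaDu and all but ABCB1 in Cal27. ABCB1 rose in FaDu AfaR, ABCC3 and ABCG2 rose in Cal27 AfaR, and ABCG2 rose in Cal27 ErlR. In FaDu ErlR none of the 8 was called, with 3 at an unadjusted p under 0.05 by edgeR and 0 called by DESeq2.

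ABCB1 (ENSG00000085563, GRCh38 chr7:87503633-87713323, minus strand) encodes P-glycoprotein, a pump of broad specificity. It stood at 0.583 and 0.572 CPM in the FaDu parental libraries, 5.43 and 6.01 in FaDu AfaR, and 1.02 and 1.24 CPM in FaDu ErlR. The 3 groups did not overlap. The fitted change was 9.68-fold in FaDu AfaR (log2 fold change 3.28 ± 0.34 SE, adjusted p = 0.00132, edgeR quasi-likelihood test), and it was called without any 1 of the 6 libraries and also by a test against a log2 fold change of 1. In FaDu ErlR the log2 fold change was 0.95 ± 0.38 (adjusted p = 0.19), which was not called, although scaling to the ERCC spike-ins gave 1.43 and an adjusted p of 0.0226. In Cal27, ABCB1 had no count in either parental library, 2 and 3 counts in AfaR and 0 and 2 counts in ErlR, which is at or under the 3 counts per library that a count of 0 allows, so it was not tested and no fold is given. Per length, its mean in FaDu AfaR was 0.985 RPKM, beside 21.4 RPKM for ABCC1 in the same cells.

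ABCG2 (ENSG00000118777, chr4:88090264-88231322, minus strand) encodes a half-transporter that pairs with itself and exports many kinase inhibitors. It stood at 1.86 and 2.04 CPM in Cal27 parental, 4.43 and 11.4 CPM in Cal27 AfaR, and 6.07 and 4.89 CPM in Cal27 ErlR. Both resistant groups lay above the parental libraries, and the 2 AfaR libraries were far apart. The log2 fold change was 2.01 ± 0.44 in AfaR (adjusted p = 0.00607, edgeR), and without AfaR replicate 2 it was 1.20 and still called. In ErlR it was 1.46 ± 0.44 (adjusted p = 0.0362), and the call was lost without parental replicate 1 (adjusted p = 0.0766), parental replicate 2 (0.0806) or ErlR replicate 1 (0.123). In FaDu, ABCG2 was at 1.41 and 2.65 CPM in parental, 2.91 and 3.13 in AfaR and 1.34 and 2.03 in ErlR, with log2 fold changes of 0.56 (adjusted p = 0.331) and -0.28 (adjusted p = 0.76).

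ABCC3 (ENSG00000108846, chr17:50634777-50692252, plus strand) encodes MRP3, which exports glucuronide conjugates. It stood at 32.4 and 41.7 CPM in Cal27 parental, 179 and 159 CPM in Cal27 AfaR, and 48.9 and 29.7 CPM in Cal27 ErlR. The AfaR libraries were above all others of either line. The change was 4.56-fold in AfaR (log2 fold change 2.19 ± 0.23, adjusted p = 0.00012, edgeR) and was called without any 1 library and against a log2 fold change of 1. In ErlR it was 0.06 ± 0.23 (adjusted p = 0.87), and the groups overlapped. In FaDu, ABCC3 was at 11.5 and 14.8 CPM in parental, 22.2 and 19.5 in AfaR (log2 fold change 0.65, adjusted p = 0.077) and 10.5 and 16.5 in ErlR (0.02, adjusted p = 0.971).

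The remaining 5 pumps were not called against parental cells. ABCC1, which exports glutathione conjugates, was the most abundant pump in every library per length, at 110 and 119 CPM in FaDu parental, 157 and 166 in FaDu AfaR and 103 and 90.3 in FaDu ErlR. The FaDu AfaR libraries lay above the other 4, with a log2 fold change of 0.48 ± 0.11 that passed the adjusted p (0.0212) but not the fold limit. In Cal27 it ranged from 134 to 173 CPM with no difference that passed. ABCC5, an exporter of cyclic nucleotides, was at 10.4 and 14.8 CPM in Cal27 parental, 18.6 and 17.4 in AfaR and 22.7 and 24.0 in ErlR. Its log2 fold change of 0.86 ± 0.20 in Cal27 ErlR passed the adjusted p (0.012) but not the fold limit, and was 1.15 without parental replicate 2.

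ABCC2, the apical conjugate pump MRP2, had 1.99 and 2.60 CPM in parental FaDu cells against 1.07 and 1.19 after afatinib selection (log2 fold change -1.03, adjusted p = 0.0796), and at 0.816 and 0.467 CPM in Cal27 parental and 1.35 and 1.45 in Cal27 AfaR (1.12, adjusted p = 0.0994). The groups did not overlap in either line, in opposite directions. ABCC4, which also exports cyclic nucleotides, ranged from 8.93 to 13.1 CPM in FaDu and from 27.0 to 54.3 CPM in Cal27. ABCC6, whose loss causes ectopic mineralization, ranged from 0.122 to 1.28 CPM, with its highest values in FaDu AfaR (0.776 and 1.28, against 0.340 and 0.312 in parental, log2 fold change 1.62, adjusted p = 0.0601). With spike-in scaling ABCC6 in FaDu AfaR had an adjusted p of 0.0479. The near copies ABCC6P1 and ABCC6P2 make counts of ABCC6 uncertain.

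**Figure D3:**
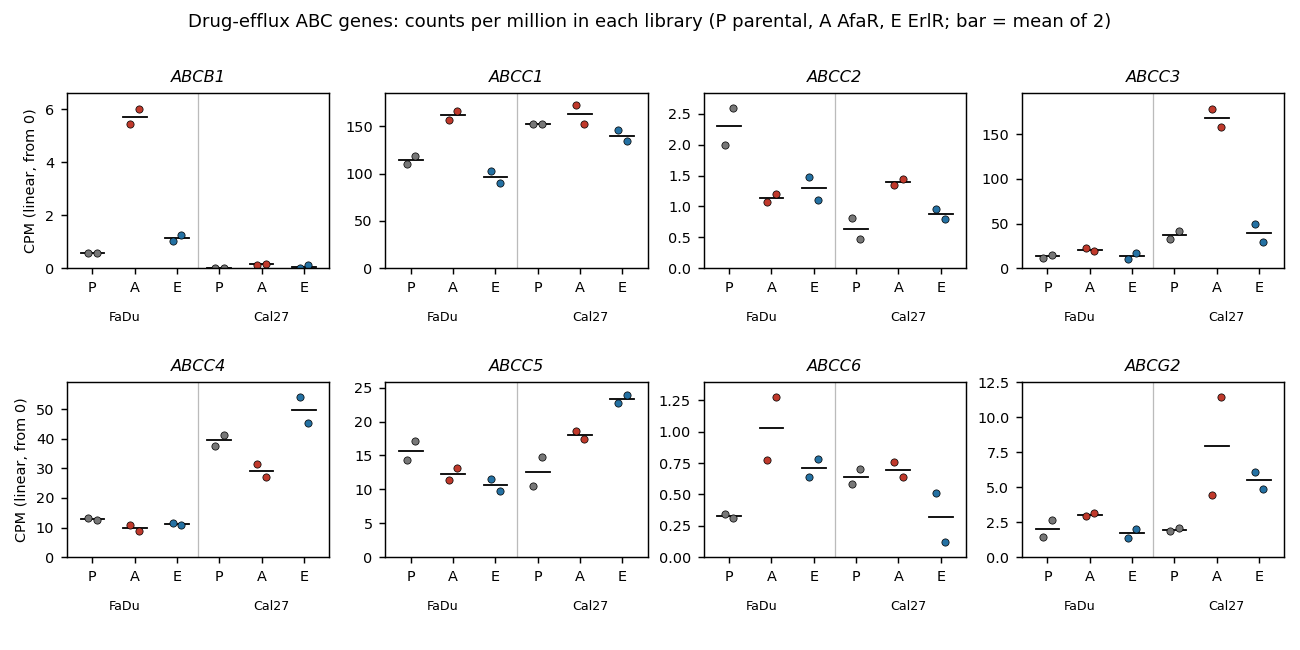
CPM of the 8 drug-efflux genes in each of the 12 libraries (points) with group means (bars), for parental (P), AfaR (A) and ErlR (E) cells of FaDu and Cal27, each axis linear from 0. ABCB1 stands out in FaDu AfaR at 5.43 and 6.01 CPM, ABCC3 in Cal27 AfaR at 179 and 159 CPM, and ABCG2 in both resistant Cal27 groups.

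The start regions of ABCB1, ABCG2 and ABCA1 are shown as examples, the first pair being the called efflux pumps and the last the sterol exporter called in both AfaR populations. They come from the RefSeq-derived promoter table (GRCh38.p14), which held 35 of the 45 members in 53 windows of 250 bases before to 50 bases after a start. ABCC3, the other called pump, and ABCG1 were not matched. Capitals mark a GC box (GGGCGG, or CCGCCC on the other strand) or a CCAAT box (CCAAT, or ATTGG on the other strand). ABCB1 has an upstream start with the window chr7:87713246-87713545 and a downstream start with the window chr7:87600835-87601134. Of the 5 ABCG2 starts, the farthest upstream (chr4:88231577-88231876) and 1 within the CpG-rich cluster (chr4:88158810-88159109) are given, and ABCA1 has 1 start (chr9:104928106-104928405). All are on the minus strand and written 5′ to 3′.
ABCB1 upstream: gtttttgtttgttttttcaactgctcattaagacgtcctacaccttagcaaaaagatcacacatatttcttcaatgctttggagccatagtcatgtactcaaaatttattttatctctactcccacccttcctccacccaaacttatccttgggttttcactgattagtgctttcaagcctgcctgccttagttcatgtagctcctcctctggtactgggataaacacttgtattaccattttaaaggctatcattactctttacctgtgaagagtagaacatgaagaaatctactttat
ABCB1 downstream: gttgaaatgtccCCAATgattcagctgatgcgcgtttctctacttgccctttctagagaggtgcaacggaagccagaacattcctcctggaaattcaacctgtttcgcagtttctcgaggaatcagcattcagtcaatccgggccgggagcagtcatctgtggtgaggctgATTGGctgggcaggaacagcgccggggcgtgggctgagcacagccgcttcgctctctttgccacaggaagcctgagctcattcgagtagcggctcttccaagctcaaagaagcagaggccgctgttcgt
ABCG2 upstream: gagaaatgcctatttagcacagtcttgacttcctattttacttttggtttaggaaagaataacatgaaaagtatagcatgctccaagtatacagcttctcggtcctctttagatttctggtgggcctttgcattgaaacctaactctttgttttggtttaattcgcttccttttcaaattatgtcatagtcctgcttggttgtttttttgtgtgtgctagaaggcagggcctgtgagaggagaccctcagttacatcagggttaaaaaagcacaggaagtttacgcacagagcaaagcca
ABCG2 cluster: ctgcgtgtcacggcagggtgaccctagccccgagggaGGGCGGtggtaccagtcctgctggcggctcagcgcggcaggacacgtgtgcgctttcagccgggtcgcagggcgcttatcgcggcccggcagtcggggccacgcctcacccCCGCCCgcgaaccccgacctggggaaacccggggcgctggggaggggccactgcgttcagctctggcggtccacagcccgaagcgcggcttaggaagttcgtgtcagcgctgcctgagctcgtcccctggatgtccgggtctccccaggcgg
ABCA1: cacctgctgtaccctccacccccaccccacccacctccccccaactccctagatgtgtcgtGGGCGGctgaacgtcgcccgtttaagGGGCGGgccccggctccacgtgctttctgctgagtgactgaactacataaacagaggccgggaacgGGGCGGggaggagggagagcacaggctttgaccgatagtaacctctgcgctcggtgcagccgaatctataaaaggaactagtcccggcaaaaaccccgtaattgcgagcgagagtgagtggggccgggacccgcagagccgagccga
The upstream windows of ABCB1 and ABCG2 held neither motif and had 37.7% and 40.3% G or C. The downstream ABCB1 window held 2 CCAAT boxes, 1 on each strand, with no GC box. The ABCG2 cluster window held 2 GC boxes and the ABCA1 window 3. Over all 35116 windows of the table, 45% held a GC box and 34.6% a CCAAT box, beside 25 and 12 of the members' 53 windows. A match of letters is a description of the window and not evidence of binding, and gene counts do not say which start was used.

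Lipid transporters moved in both directions. Of the 10 members that handle sterols or phospholipids, 6 were tested in each line. ABCA1 and ABCG1, which hand cellular cholesterol to apolipoproteins and HDL, rose in FaDu AfaR, ABCA1 rose in Cal27 AfaR, ABCA12 rose in FaDu ErlR, ABCA2 fell in both ErlR populations and ABCA7 fell in Cal27 ErlR.

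ABCG1 (ENSG00000160179, chr21:42199689-42297244, plus strand) was at 0.680 and 0.572 CPM in FaDu parental, 3.83 and 3.54 in FaDu AfaR and 0.575 and 0.523 CPM in FaDu ErlR. The AfaR libraries stood apart from the other 4, with a log2 fold change of 2.52 ± 0.37 (adjusted p = 0.00457, edgeR) that was called without any 1 library. In Cal27 it was at 4.37 and 3.56 CPM in parental, 6.05 and 1.68 in AfaR and 1.66 and 2.20 in ErlR, where the log2 fold changes were -0.03 (adjusted p = 0.974) and -1.06 (adjusted p = 0.171). The FaDu AfaR values overlapped those of Cal27 parental cells.

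ABCA1 (ENSG00000165029, chr9:104781002-104928237, minus strand) was at 1.70 and 2.44 CPM in FaDu parental, 5.43 and 6.17 in FaDu AfaR and 1.98 and 1.83 CPM in FaDu ErlR. In FaDu AfaR the log2 fold change was 1.47 ± 0.30 (adjusted p = 0.0141, edgeR). The call was lost without parental replicate 1 (adjusted p = 0.123), without AfaR replicate 2 (0.0729) and in a fit of all 12 libraries (0.0697). In Cal27 it was at 9.20 and 13.9 CPM in parental, 83.2 and 24.4 CPM in AfaR and 6.71 and 3.79 CPM in ErlR. Both AfaR libraries were above parental, but they were far apart, and the log2 fold change of 2.22 ± 0.50 (adjusted p = 0.00718) became 1.08 without AfaR replicate 1 and was no longer called (adjusted p = 0.0739). In Cal27 ErlR both libraries were below parental, at a log2 fold change of -1.17 that was not called (adjusted p = 0.137).

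ABCA12 loads glucosylceramide into the lamellar granules of keratinocytes. It was at 5.05 and 2.60 CPM in FaDu parental, 1.99 and 2.67 in FaDu AfaR and 12.1 and 15.5 in FaDu ErlR, so the ErlR libraries were above the other 4. The log2 fold change in ErlR was 1.83 ± 0.33 (adjusted p = 0.023, edgeR), and it was not called without parental replicate 2 (0.112) or ErlR replicate 2 (0.114). In Cal27 ErlR it was at 6.13 and 5.19 CPM against 2.04 and 4.84 in parental (0.69, adjusted p = 0.245).

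ABCA2, an endolysosomal lipid transporter, was lower in both ErlR populations. In Cal27 it was at 58.1 and 98.8 CPM in parental, 124 and 74.2 in AfaR and 21.3 and 22.4 in ErlR, a log2 fold change of -1.87 ± 0.29 in ErlR (adjusted p = 0.00197, edgeR) that was called without any 1 library. In FaDu it was at 17.7 and 20.8 CPM in parental, 13.6 and 24.0 in AfaR and 7.86 and 8.96 in ErlR. The FaDu ErlR log2 fold change of -1.21 ± 0.26 (adjusted p = 0.0377) was less firm. It was lost without any 1 of parental replicate 1 (0.126), parental replicate 2 (0.185), ErlR replicate 1 (0.113) or ErlR replicate 2 (0.138), in a fit of all 12 libraries (0.0591), and by the fold limit with spike-in scaling (log2 fold change -0.73).

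ABCA7, a phospholipid transporter related to ABCA1, was at 23.8 and 31.9 CPM in Cal27 parental, 39.8 and 29.0 in AfaR and 9.20 and 11.4 in ErlR. The ErlR libraries were below the other 4 (log2 fold change -1.46 ± 0.23, adjusted p = 0.00197, edgeR), and the call was kept without any 1 library. ABCA5, a lysosomal member of the chromosome 17 ABCA cluster, was at 4.43 and 6.13 CPM in Cal27 parental and 2.62 and 2.51 in ErlR. Its log2 fold change of -1.07 ± 0.30 (adjusted p = 0.0275) was not called without parental replicate 2 (-0.80, adjusted p = 0.178), ErlR replicate 1 (0.0849) or ErlR replicate 2 (0.0816). Of the 5 genes in that cluster, only ABCA5 and ABCA10 were tested. ABCA6, ABCA8 and ABCA9 reached at most 0.192 CPM in any library.

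ABCA13, a very large lipid transporter, was at 1.40 and 1.75 CPM in Cal27 parental, 4.48 and 8.47 in Cal27 AfaR and 1.21 and 2.38 in Cal27 ErlR. The AfaR libraries were above the other 4, with a log2 fold change of 2.03 ± 0.44 (adjusted p = 0.00575, edgeR) that was lost without AfaR replicate 2 (1.52, adjusted p = 0.0532). In FaDu it was at 0.243 and 0.364 CPM in parental and 0.728 and 1.40 in AfaR, a log2 fold change of 1.79 with an adjusted p of 0.121.

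ABCD3, a peroxisomal half-transporter that imports branched-chain and bile acid intermediates, was at 81.4 and 70.6 CPM in Cal27 parental, 63.5 and 78.5 in AfaR and 165 and 160 in ErlR. The ErlR libraries were above all others of both lines. The change was 2.10-fold (log2 fold change 1.07 ± 0.14, adjusted p = 0.00104, edgeR), and without parental replicate 2 it fell just under the fold limit (0.99, adjusted p = 0.00646). In FaDu it was at 114 and 115 CPM in parental, 76.9 and 69.9 in AfaR and 89.6 and 91.5 in ErlR, with a log2 fold change of -0.66 in AfaR that passed the adjusted p (0.00684) but not the fold limit. ABCD4, which moves cobalamin out of lysosomes, passed the adjusted p with log2 fold changes of 0.41 in FaDu AfaR (0.0443) and 0.86 in Cal27 AfaR (0.0255).

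The mitochondrial members and the ribosome-associated members had few calls. Of 4 mitochondrial genes, ABCB6, a porphyrin transporter, was the only one called, at 5.53 and 6.42 CPM in Cal27 parental, 3.40 and 4.53 in AfaR and 2.56 and 2.51 in ErlR (log2 fold change in ErlR -1.26 ± 0.30, adjusted p = 0.0127, edgeR). It was not called without parental replicate 2 (0.0716) or ErlR replicate 1 (0.0504). ABCB10, needed for haem synthesis, passed the adjusted p in both resistant Cal27 groups, with log2 fold changes of -0.62 in AfaR (0.0123) and 0.49 in ErlR (0.0403). ABCB8 did not pass in any of the 4 comparisons. None of ABCE1, ABCF1, ABCF2 and ABCF3 was called, with an unadjusted p under 0.05 by edgeR for 2 of them in AfaR and 0 in ErlR of FaDu and for 1 and 4 in Cal27, and 0 called by DESeq2. ABCF2 passed the adjusted p in FaDu AfaR (log2 fold change -0.56, adjusted p = 0.0145) and Cal27 ErlR (0.48, adjusted p = 0.04).

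ABCC9 went from no count in parental cells to a low level in 3 of the 4 resistant populations. It encodes SUR2, the regulatory subunit of ATP-sensitive potassium channels, and lies at chr12:21797401-21942529 on the minus strand (ENSG00000069431). Neither parental group had a count. There were 81 and 127 counts in the Cal27 AfaR libraries (4.37 and 7.37 CPM), 22 and 15 in FaDu ErlR (1.41 and 0.981 CPM), 10 and 3 in Cal27 ErlR (0.639 and 0.183 CPM) and 1 and 3 in FaDu AfaR. Against the 3 counts per library that a count of 0 allows, these were at least 33.6-fold higher in Cal27 AfaR, at least 7.92-fold in FaDu ErlR and at least 2.35-fold in Cal27 ErlR, while FaDu AfaR was under that floor. The Cal27 ErlR bound rests on ErlR replicate 1, since replicate 2 had only the 3 counts of the floor. No p is given for ABCC9, for the reason stated with the counts of called members. ABCC8, the other sulfonylurea receptor, had no count in any Cal27 library. Among genes not tested, ABCD2 had 15 and 6 counts in Cal27 AfaR and none in Cal27 parental, at least 3.31-fold higher, with no test, and at least 1.99-fold by AfaR replicate 2 alone.

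**Figure D4:**
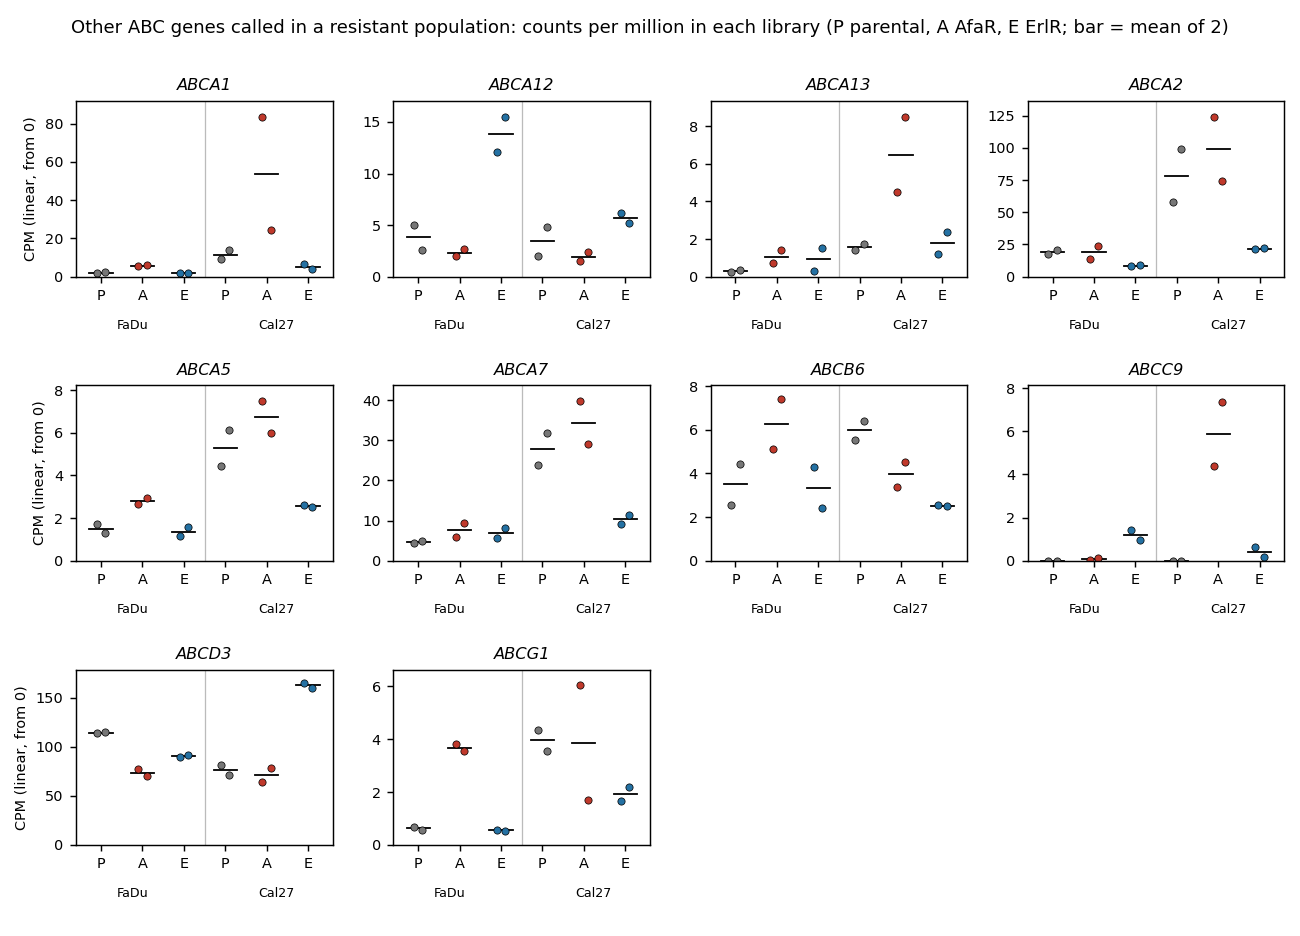
CPM in each library (points) with group means (bars) for 10 called ABC genes outside the drug-efflux set, each axis linear from 0, for parental (P), AfaR (A) and ErlR (E) cells. ABCG1 stands out in FaDu AfaR, ABCA12 in FaDu ErlR, ABCA1, ABCA13 and ABCC9 in Cal27 AfaR and ABCD3 in Cal27 ErlR, and the 2 Cal27 AfaR libraries are far apart for ABCA1 and ABCG1.

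Other changes ran with the Cal27 results. The summed level of the 7 squamous markers was 538 to 662 CPM in Cal27 AfaR against 3355 to 4639 CPM in Cal27 parental, with none at 0, and that of 6 fibroblast markers was 284 to 291 CPM against 29.9 to 41.5 CPM, with 3 of the 6 above 1 CPM in both. In Cal27 ErlR the squamous sum was 4697 to 4743 CPM and the fibroblast sum 5.24 to 10.3 CPM, with DCN at 0. A single gene carried the fibroblast sum in Cal27 AfaR (COL1A1, mean 269 CPM), while DCN, COL3A1 and THY1 were under 1 CPM. The sum of 5 endothelial markers was 31.9 to 33.2 CPM in Cal27 parental, 30.3 to 37.5 in AfaR and 2.56 to 6.17 in ErlR, with CLDN5 at 0 in ErlR, and it too was carried by 1 gene (CDH5, mean 30.5 CPM in parental, 32.1 in AfaR and 2.62 in ErlR). Their part in the ABC gene results was not tested. Immune marker sums stayed between 10.5 and 18.5 CPM in all groups, with CD3E at 0 in 5 of them, and sums of 5 hepatocyte markers between 4.89 and 46.3 CPM, with TTR at 0 in every group.

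The 2 resistant populations of a line were also compared with each other. Each drug is represented by 1 population per line, so drug and selection event cannot be told apart. In FaDu, 6 of 31 members were called against 5.94% of all genes, of which 4.45% were higher and 1.5% lower in AfaR. ABCG1 (log2 fold change 2.72 ± 0.39, adjusted p = 0.00397), ABCB1 (2.32 ± 0.32, 0.00372), ABCA1 (1.60 ± 0.31, 0.0115) and ABCA2 (1.16 ± 0.26, 0.0196) were higher in AfaR, and ABCA12 (-2.56 ± 0.34, 0.00342) was higher in ErlR, by edgeR. The sixth was ABCC9, higher in ErlR, with 1 and 3 counts in AfaR. ABCG1, ABCB1 and ABCA12 were called without any 1 library. The call of ABCA1 was lost without AfaR replicate 2 (0.063) or ErlR replicate 2 (0.0668), and that of ABCA2 without AfaR replicate 2 (0.101), ErlR replicate 1 (0.075) or ErlR replicate 2 (0.0735). The count was 3 without AfaR replicate 2 or ErlR replicate 2.

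In Cal27, 13 of 31 members were called between AfaR and ErlR, against 27.1% of all genes (18.2% higher and 8.86% lower in AfaR). Among those higher in AfaR were ABCC3, ABCA1, ABCA2, ABCA5, ABCA7, ABCA13, ABCB5, ABCC9 and ABCD4, and higher in ErlR were ABCD3, ABCB10 and ABCA12. ABCC3 (log2 fold change 2.13 ± 0.23, adjusted p = 9.42e-05) and ABCD3 (-1.17 ± 0.14, 0.000195), by edgeR, were both kept without any 1 library. ABCB5, a relative of ABCB1, was at 0.864 and 0.813 CPM in AfaR and 0 and 0.0611 in ErlR, so its fold rests on 1 count. It passed the filter on low counts through AfaR alone, as ABCC9 did, so neither call is support. ABCG2 did not differ by the test (log2 fold change 0.56 ± 0.40, adjusted p = 0.279). The call of ABCA12 was lost without AfaR replicate 1 (0.13) or ErlR replicate 1 (0.0572), that of ABCA13 without AfaR replicate 2 (0.059), and that of ABCD4 without AfaR replicate 1 (0.0867) or, by the fold limit, ErlR replicate 2 (0.95).

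Whether a drug-selected population changed alike in the 2 lines was tested as a difference of the 2 effects. ABCG1, ABCC2 and ABCC3 differed between the lines for AfaR, and ABCA7, ABCC5 and ABCD3 among others for ErlR. In a fit of all 12 libraries, the AfaR effect differed between lines for 3 of 32 members (12.3% of 16240 genes, 7.57% with the FaDu effect higher and 4.76% lower). The effect on ABCG1 was higher in FaDu (FaDu minus Cal27 2.57 ± 0.70 on the log2 scale, adjusted p = 0.0219), and the effects on ABCC3 (-1.52 ± 0.35, 0.00929) and ABCC2 (-2.13 ± 0.57, 0.0214) were higher in Cal27, by edgeR. ABCC3 was kept without any 1 library. The ABCG1 difference was lost without FaDu parental replicate 1 (0.0631), FaDu parental replicate 2 (0.0802) or Cal27 parental replicate 1 (0.0586). The ABCC2 difference was lost without FaDu parental replicate 2 (0.0829), FaDu AfaR replicate 1 (0.0621), FaDu AfaR replicate 2 (0.0534), Cal27 parental replicate 2 (0.0899) or Cal27 AfaR replicate 2 (0.0607). Without FaDu ErlR replicate 2, 5 members were called. With spike-in scaling 4 were called, 2 in each direction, in place of 1 and 2. Of all genes 2107 were then called in place of 2003, and 71.3% of the calls had the FaDu effect higher. For ABCG2 the difference was -1.44 ± 0.62 (adjusted p = 0.132), so its change in Cal27 AfaR was not shown to differ from that in FaDu AfaR.

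The ErlR effect differed between lines for 4 of 32 members (10.9% of all genes, 7.51% with the FaDu effect higher and 3.36% lower). ABCA7 (FaDu minus Cal27 1.98 ± 0.39, adjusted p = 0.00481) had a log2 fold change of 0.54 in FaDu ErlR beside -1.46 in Cal27 ErlR, by edgeR. ABCC5 (-1.45 ± 0.27, 0.00404) and ABCD3 (-1.43 ± 0.18, 0.000364) had -0.58 and -0.35 in FaDu ErlR beside 0.86 and 1.07 in Cal27 ErlR. All 4 were kept without any 1 library. With spike-in scaling ABCC5 and ABCD3 were under the fold limit (-0.96 for each) and 5 members were called, all with the FaDu effect higher. Of all genes 2805 were then called in place of 1765, and 93.8% of the calls had the FaDu effect higher. ABCA2 fell in both ErlR populations, with a difference of 0.65 ± 0.44 (adjusted p = 0.327).

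**Figure D5:**
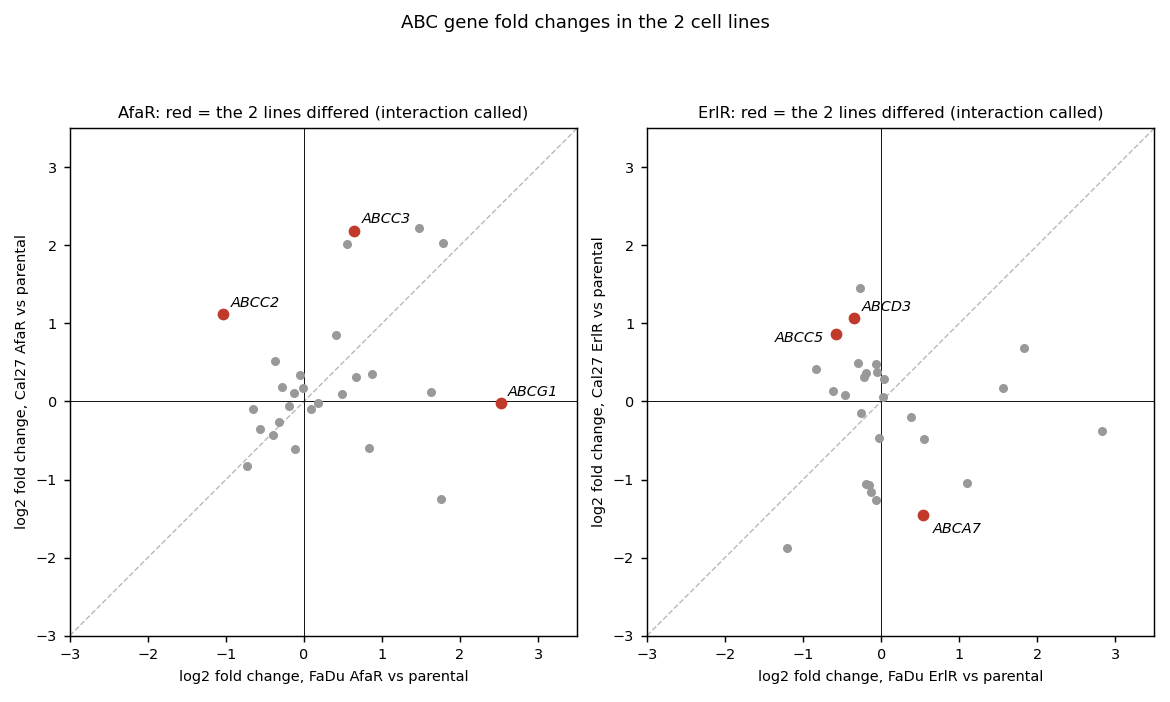
Log2 fold change against parental cells in FaDu (horizontal) and Cal27 (vertical) for 27 of the ABC genes tested in both lines, without ABCC9, in AfaR (left) and ErlR (right), with the line of equal change dashed. Red genes had a called difference between the lines, with ABCC2, ABCC3 and ABCG1 shown for AfaR and ABCA7, ABCC5 and ABCD3 for ErlR.

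The unselected lines also differed in their ABC genes, with ABCB1 found in FaDu parental cells alone and ABCA1, ABCA2, ABCA7 and ABCG1 higher in Cal27. Between Cal27 and FaDu parental cells, 16 of 32 members were called (31.6% of all genes, 19.1% higher and 12.5% lower), 12 higher and 4 lower in Cal27. Line, culture medium and library depth cannot be told apart there. ABCB1 was at 0.583 and 0.572 CPM in FaDu and had no count in Cal27 (adjusted p = 0.000789, edgeR), at least 3.30-fold higher in FaDu. Of the other pumps, ABCC4 (log2 fold change 1.62 ± 0.16, adjusted p = 3.46e-06) and ABCC3 (1.49 ± 0.25, 0.000287) were higher in Cal27 and ABCC2 (-1.83 ± 0.42, 0.00235) was higher in FaDu. The lipid transporters ABCA7 (2.56 ± 0.28, 8.44e-06), ABCG1 (2.65 ± 0.53, 0.000997), ABCA1 (2.48 ± 0.51, 0.00126), ABCA2 (2.03 ± 0.30, 0.000114) and ABCA5 (1.81 ± 0.31, 0.000314) were higher in Cal27. ABCD4 and ABCF2 were lower in Cal27. ABCA10, ABCA13 and ABCB5 were called higher in Cal27 on low counts. ABCA10 had 20 and 10 counts in Cal27 parental against 1 and 2 in FaDu parental, and ABCB5 had 6 and 4 against 0 and 0. ABCA10 reached the filter level in both libraries only in Cal27 parental, and ABCB5 only in Cal27 AfaR. The calls of ABCA10 and ABCB5 are therefore counted but support nothing. The call of ABCA10 was lost without FaDu parental replicate 1 (0.0717) or Cal27 parental replicate 1 (0.0642), that of ABCA13 without FaDu parental replicate 1 (0.0841) or Cal27 parental replicate 2 (0.0544), and that of ABCB5 without FaDu parental replicate 1 (0.0691), FaDu parental replicate 2 (0.062) or Cal27 parental replicate 1 (0.0558). ABCF2 fell under the fold limit without FaDu parental replicate 1 (-0.96) or Cal27 parental replicate 2 (-0.91). ABCG2 stood at about the same level in the parental cells of both lines (log2 fold change -0.05 ± 0.46, adjusted p = 0.937).

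Related genes outside the symbol rule were read for context. Of the 3 ABC proteins with other symbols, 2 were tested in each line. TAP1, which carries peptides into the endoplasmic reticulum, rose in FaDu AfaR (41.1 and 58.7 CPM in parental, 100.1 and 123 in AfaR, log2 fold change 1.14 ± 0.21, adjusted p = 0.00962, edgeR), beside 6.48% of all genes called higher. CFTR stayed at or below 0.233 CPM in all libraries. Of 22 drug uptake carriers, 13 were tested in each line. In Cal27 AfaR 1 was called higher (SLC22A4, named after its value was seen) and 6 lower, beside 11.5% and 8.06% of all genes. Those with the largest changes were SLCO2A1 (-4.20), SLC28A3 (-3.54), the organic anion carrier SLCO4A1 (99.7 and 128 CPM in parental, 13.9 and 21.3 in AfaR, log2 fold change -2.69, adjusted p = 3.7e-05) and the nucleoside carrier SLC29A2 (41.1 and 46.4 CPM, 7.56 and 7.78, log2 fold change -2.51, adjusted p = 0.000173). In Cal27 ErlR 2 were called lower, SLCO2A1 and SLC28A3 (9.92% of all genes were). SLCO2A1 had 12 and 10 counts in Cal27 parental, 0 and 1 in AfaR and 2 and 0 in ErlR. SLC28A3 had 29 and 141, 8 and 7, and 16 and 9 in the same order. Both genes reached the filter level in both libraries only in parental cells, where they were high. Their calls in AfaR and ErlR are therefore counted but support nothing. In FaDu only SLCO1A2 was called, higher in AfaR (1.71, adjusted p = 0.0214, beside 6.48% of all genes) and ErlR (1.82, adjusted p = 0.0404, beside 1.54%).

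Of 6 genes outside the family taken as efflux-related, 6 were tested in FaDu and 5 in Cal27. The copper pumps ATP7A (log2 fold change 1.97, adjusted p = 0.000652, edgeR) and ATP7B (1.03, 0.0351) were called higher in Cal27 AfaR, beside 11.5% of all genes. The vault protein MVP was called lower in Cal27 ErlR (-1.28, 0.000515), beside 9.92% of all genes. Of 20 nuclear receptors and regulators of ABC genes, 17 were tested. PPARG was called higher in FaDu ErlR (1.02, adjusted p = 0.0465, edgeR, beside 1.54% of all genes) and in Cal27 AfaR (2.07, 0.00299, beside 11.5%). SREBF1 was called lower in Cal27 AfaR (-1.89, 0.00249, beside 8.06%). In Cal27 ErlR 5 were called lower, beside 9.92% of all genes, with the largest changes in SREBF1, PPARA, SREBF2 and NR1H3 (the oxysterol receptor LXR alpha). Of 10 other targets of the LXR receptors, which are known to drive ABCA1 and ABCG1, 9 were tested. PLTP was called higher in FaDu AfaR (1.12, adjusted p = 0.0227, edgeR, beside 6.48% of all genes) and lower in Cal27 AfaR (-2.59, 1.1e-05). SCD, FASN and SREBF1, the last of which is in both lists, were also called lower in Cal27 AfaR (4 of 9, beside 8.06% of all genes). Any part of the LXR receptors in the ABC gene results was not tested.

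Position was read as a further property that the symbol rule did not use. For each of the 20 calls against parental cells, the 5 nearest tested genes on each side were listed. Their median log2 fold change lay between -0.54 and 0.81, and 0 to 4 of 10 were called in the direction of the member. Of all genes, 6.48% were called higher in FaDu AfaR, and 1.54% higher and 0.504% lower in FaDu ErlR. In Cal27 these shares were 11.5% higher in AfaR, and 3.56% higher and 9.92% lower in ErlR. Around ABCB1 in FaDu AfaR the median was 0.17 and 1 of 10 was called in the same direction. Around ABCD3 in Cal27 ErlR the median was 0.81, with 7 of 10 in its direction and 4 called. Around ABCG2 it was 0.53 in Cal27 AfaR (4 called in its direction) and 0.76 in Cal27 ErlR (9 of 10 in its direction, 2 called). Around ABCG1 in FaDu AfaR it was 0.75, with 3 called in its direction. In Cal27 ErlR it was -0.23 around ABCA2 (8 of 10 in its direction, 4 called) and -0.54 around ABCA5 (9 of 10, 2 called). The neighbours of ABCA5 include another member, ABCA10. Around ABCC3 in Cal27 AfaR it was -0.09, with 0 called in its direction.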

How the data were processed

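A service provider made poly(A) libraries from frozen cell pellets for the authors, and the paired reads were aligned to GRCh38. The submitters' processing notes name Trimmomatic 0.36, STAR 2.5.2b and featureCounts of Subread 1.5.2, and whether strand was used is not given in the sources used here. The deposited values are raw counts per gene and library. The authors' normalized tables and their fold changes and p-values were not used. ERCC rows (92, taking 3.86% to 5.82% of counts) were left out of library sizes. Of 58051 gene IDs, 56948 matched GENCODE v44, which gave symbols and biotypes, while positions and exon lengths came with the deposited counts.

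Counts were scaled by TMM, filtered with filterByExpr and tested with edgeR 4.0.16 in R 4.3.3 (quasi-likelihood, Benjamini-Hochberg adjustment), with the 6 libraries of a line in a fit (3 residual degrees of freedom) or all 12 for comparisons between lines (6). Beside the 8 efflux genes, every member called against parental cells was named, and related lists by at most 4 genes per comparison, those with the largest changes. Alternatives were DESeq2 1.42.0, other scalings, filters, fold limits and sample sets, a replicate term, and leaving out each library. Results for 2 of the members are included in the counts but not reported here. The members and lists were chosen with earlier results of these data known. No 2 libraries of a group agreed within sampling noise. The test code was checked on simulated counts. Standard errors include the spread between repeat libraries of a group, while floors cover counting error only.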

Additional observations from a re-analysis of the deposited data

Results flagged for a closer look

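For the 6 members given here the effect of selection differed between the 2 lines by the interaction test of edgeR, each given as the FaDu effect minus the Cal27 effect on the log2 scale. For AfaR these were ABCC2 (-2.13), ABCC3 (-1.52) and ABCG1 (2.57). For ErlR they were ABCD3 (-1.43), ABCC5 (-1.45) and ABCA7 (1.98). ABCC2 was not called in either line alone. The lines differ in culture medium as well as in origin, and each effect rests on 1 selected population per line, so line, medium and selection event cannot be told apart.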

How the results depend on the processing

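With 2 libraries per group, 91 of 120 recalculations of the 20 calls against parental cells with 1 library left out kept the call and 29 lost it, none with a change of sign. The number of called members then ranged from 2 to 4 (AfaR) and 0 to 3 (ErlR) in FaDu and from 4 to 6 and 4 to 9 in Cal27, from 3 to 6 and 12 to 13 between AfaR and ErlR in FaDu and Cal27, from 2 to 5 and 4 to 5 for the AfaR and ErlR differences between lines, and from 13 to 16 between parental cells. With no fold limit 8 members were called in FaDu AfaR and 8 in Cal27 AfaR. With a test against a log2 fold change of 1 (glmTreat), 1 (AfaR) and 0 (ErlR) were called in FaDu, 2 and 1 in Cal27, 0 and 7 between AfaR and ErlR in FaDu and Cal27, and 0 for both differences between lines, where the standard test gave an unadjusted p under 0.05 for 11 (FaDu ErlR), 15 (FaDu AfaR against ErlR), 10 and 15 members and DESeq2 called 2, 5, 3 and 4. With no filter 6 were called for the AfaR difference, and with at least 10 counts in every library 10 between parental cells, where fewer members were tested. Spike-in scaling, which gave 6 calls in FaDu ErlR, moved the median log2 fold change of all genes to 0.18 in FaDu AfaR, 0.49 in FaDu ErlR, -0.29 in FaDu AfaR against ErlR, 0.18 and 0.49 for the AfaR and ErlR differences and 0.62 between parental cells. The share of all calls that were higher in FaDu went from 75.4% to 96.1% for ErlR and from 74.8% to 37.0% for AfaR against ErlR, and the share went from 69.1% to 93.8% for the ErlR difference and from 60.4% to 84.8% between parental cells. Upper-quartile scaling moved that median to 0.12 in Cal27 AfaR against ErlR. How much spike-in was added per cell is not given in the sources used here.

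Values that were not called changed sign as follows, and the cause was not tested. In FaDu ErlR, spike-in scaling gave 0.19 for ABCG2, 0.27 for ABCC4 and 0.24 for ABCC1, ABCG2 ranged from -0.67 to 0.24 with 1 library left out (0.24 without parental replicate 2), and ABCC3 from -0.34 to 0.31 (-0.15 without parental replicate 1 and -0.34 without ErlR replicate 2). ABCC6 in Cal27 AfaR reached 0.26 without parental replicate 2 and was -0.0023 without parental replicate 1 and -0.00598 without AfaR replicate 1. ABCC3 in Cal27 ErlR was -0.0045 with upper-quartile scaling, -0.093 without parental replicate 1, -0.34 without ErlR replicate 1 and 0.41 without ErlR replicate 2.

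Replicate numbers did not pair the samples (correlations of same-numbered deviations from -0.26 to 0.16), and a fit with the replicate number as a block called 4, 3, 5 and 8 members against parental cells, as without it, and changed none of the other counts (6, 13, 3, 4 and 16).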
